A study of Homo sapiens with 5 samples.

Results

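The subject here is a group of 10 genes that encode core subunits of the Polycomb repressive complexes PRC1 and PRC2: PCGF1, PCGF2, BMI1, RING1, RNF2 and CBX2 for PRC1, and EZH1, EZH2, EED and SUZ12 for PRC2. They are 10 of 20037 protein-coding genes placed on chromosomes 1 to 22, X and Y. The group was chosen by name around 1 measured result. PCGF1 was selected on its high H4K12la promoter peak, listed in the 2 controls and missing with dexamethasone. The other 9 genes are further subunits of both complexes, and the group does not hold every subunit of either. All profiles come from 786-O, an established cell line from a human renal carcinoma, by CUT&Tag, in which an antibody-tethered transposase tags the chromatin it is bound to. H4K12la, lactylation of a lysine in the tail of histone H4, was profiled in 2 libraries of untreated cells and in 2 libraries of cells given 10 µM dexamethasone, a synthetic glucocorticoid, for 48 h. The glucocorticoid receptor (GR), the transcription factor that dexamethasone activates, was profiled in 1 library, from dexamethasone-treated cells only.

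Polycomb complexes keep developmental genes silent. PRC2 methylates a lysine of histone H3 through its catalytic subunit EZH2 or EZH1, with SUZ12 as scaffold and EED as the subunit that binds the finished mark and stimulates further methylation. PRC1 attaches ubiquitin to histone H2A through RING1 or RNF2 paired with a PCGF protein, and in canonical PRC1 a CBX protein such as CBX2 binds the methyl mark left by PRC2. H4K12la is one of the histone acyl marks derived from lactate, and marks of this kind have been described at active promoters and enhancers.

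Each deposited list gives the peaks of 1 library. A height below is the whole-number signal at a peak's summit as the authors deposited it. Read depth is unknown, the control lists are longer (126594 and 112409 peaks used) than the dexamethasone lists (80721 and 67582), and the median height is 24 and 26 in control and 23 and 24 in dexamethasone lists. A lower height or a missing peak with dexamethasone can therefore come from depth, and "no peak" means only that none was listed. A promoter peak is one that overlaps the 1 kb on either side of a gene's RefSeq start by 1 bp or more. CBX2 had no start in the table used, so 1 kb around both ends of its span was taken instead. The extended span is the gene with 5 kb on each side. A gene or region is called control-only when the 2 control lists hold a peak there and the 2 dexamethasone lists do not. Since PCGF1 was picked for this contrast, the control and dexamethasone values are given as a description with no test, and 2 libraries against 2 could in any case not reach an exact two-sided permutation p below 0.333. Of 8 genes typical of renal tumour epithelium, 8 had a promoter peak in each control list and 5 and 3 in the dexamethasone lists. Of 8 markers of blood, endothelial, liver, glial and muscle cells, 1 and 3 had one in control and 2 and 1 in dexamethasone lists. PTPRC, PECAM1, ALB and MYOD1 had none in any list. CDH5 had one in control replicate 2 (19) and in both dexamethasone lists (19 and 26). GFAP had one in control replicate 2 (38) and dexamethasone replicate 1 (29). CD3E had one in control replicate 2 (14) and CD79A in control replicate 1 (21).

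The GR list placed a peak across the start of PCGF1, RING1, EED and SUZ12 and just upstream of the start of EZH2. The 250 bases before these starts are shown 5′ to 3′ on the gene's own strand, because they are the promoter sequences under or beside those GR peaks. They come from RefSeq (GRCh38.p14): PCGF1 at chr2:74507696-74507945 (minus strand), RING1 at chr6:33208250-33208499 (plus), EZH2 at chr7:148884292-148884541 (minus, first of its 2 listed starts), EED at chr11:86244503-86244752 (plus) and SUZ12 at chr17:31936757-31937006 (plus). Capitals mark every match, on either strand, to the 8 motifs named in the next paragraph.
PCGF1: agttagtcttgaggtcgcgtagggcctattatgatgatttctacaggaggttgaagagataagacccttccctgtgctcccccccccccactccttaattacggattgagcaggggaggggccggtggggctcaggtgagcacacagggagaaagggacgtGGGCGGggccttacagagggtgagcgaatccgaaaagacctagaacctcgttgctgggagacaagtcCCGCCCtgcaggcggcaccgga
RING1: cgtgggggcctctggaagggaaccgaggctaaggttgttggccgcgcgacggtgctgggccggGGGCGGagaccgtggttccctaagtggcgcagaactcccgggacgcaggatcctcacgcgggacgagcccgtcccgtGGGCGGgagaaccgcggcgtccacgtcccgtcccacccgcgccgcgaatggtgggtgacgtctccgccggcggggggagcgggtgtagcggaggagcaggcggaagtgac
EZH2: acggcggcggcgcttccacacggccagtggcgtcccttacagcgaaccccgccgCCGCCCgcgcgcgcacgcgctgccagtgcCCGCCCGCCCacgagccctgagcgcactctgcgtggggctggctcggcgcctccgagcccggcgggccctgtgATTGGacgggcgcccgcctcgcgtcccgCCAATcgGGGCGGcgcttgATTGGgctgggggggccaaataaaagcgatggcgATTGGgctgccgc
EED: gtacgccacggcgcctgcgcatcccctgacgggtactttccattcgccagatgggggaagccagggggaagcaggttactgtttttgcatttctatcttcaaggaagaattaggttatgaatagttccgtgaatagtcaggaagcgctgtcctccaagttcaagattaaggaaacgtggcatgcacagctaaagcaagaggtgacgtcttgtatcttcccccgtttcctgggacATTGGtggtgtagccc
SUZ12: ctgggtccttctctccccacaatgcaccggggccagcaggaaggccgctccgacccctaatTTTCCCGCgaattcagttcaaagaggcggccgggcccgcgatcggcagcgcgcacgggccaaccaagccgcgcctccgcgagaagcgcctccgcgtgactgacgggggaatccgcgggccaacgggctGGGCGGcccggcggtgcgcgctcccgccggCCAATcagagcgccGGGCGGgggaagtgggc

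The promoter table held 9 of the 10 genes, and the same 250-base window was searched in 22199 promoters of protein-coding genes. The GR half-site AGAACA was in none of the 9 genes' windows, against 9.84% of all promoters, and the full palindrome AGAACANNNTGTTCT was in 0 of the 22199. The windows hold upstream bases only. The GR peaks reach 0.34 kb downstream of the start at PCGF1, 0.275 kb at RING1, 0.464 kb at EED and 0.294 kb at SUZ12. Those parts were not searched. The peaks also reach upstream past the window, to -0.273 kb at PCGF1, -0.286 kb at RING1, -0.258 kb at EED and -0.329 kb at EZH2. The GR peaks are therefore not shown to lack the motif. GGGCGG, the box bound by SP and KLF factors, occurred 2 times in PCGF1, 2 in RING1, 4 in EZH2 and 2 in SUZ12 and was absent from EED; 53.7% of all promoters hold it. CCAAT, the NF-Y box, occurred 4 times in EZH2 and 1 time each in EED and SUZ12, and 32.7% of promoters hold it. SUZ12 alone of the 9 held TTTCCCGC, an E2F-type site found in 1.73% of promoters. The ETS-type CCGGAAG (10.7% of promoters), the cyclic AMP element TGACGTCA (2.01%) and GCGCATGCGC, the NRF1 site (1.28%), were in none of the 9. Overlapping matches were counted separately. In CpG content the genes fell far apart. The PCGF1 window held 12 CpG and the EED window 11, both under the median of 16 over all promoters, whereas RING1, RNF2 and SUZ12 held 34 each, BMI1 35 and EZH2 38 at their first starts, EZH1 held 26 and PCGF2 just 1. PCGF1 and EED carried the highest control promoter peaks of the group, while PCGF2, with the fewest CpG, carried none. The only listed start of PCGF2, at 38746628 on the minus strand, lies inside its gene span, which ends at 38749792. Its CpG count is therefore not that of the upstream end of the span.

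PCGF1 (gene ID 84759, chromosome 2, 74505043 to 74507695, minus strand) encodes the PCGF subunit of a variant PRC1 that also contains KDM2B and BCOR. Its H4K12la promoter peak had a height of 207 in control replicate 1 and 217 in control replicate 2, and neither dexamethasone list held a peak anywhere in the gene or within 5 kb of it. The control peaks were 1590 and 1552 bp long, covered the start, and stood above 99.8% of all peaks in each of the 2 control lists. Among the 4437 genes that were control-only at the promoter, PCGF1 ranked 6 by mean control height. A second control-only region lay 4.45 kb downstream of the start, with heights of 142 and 148. It covers the starts of LBX2, a homeobox gene, and of the antisense transcript LBX2-AS1, so it cannot be assigned to PCGF1. No other protein-coding gene shared the PCGF1 promoter window.

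The genes closest to PCGF1 in promoter height over the 4 H4K12la lists, by the distance between their log2(height + 1) values, were MICALL1 (heights 202 and 205 in control), HOXC4, HOXC5 and HOXC6, which share 1 start region with heights of 197 and 231, and INO80D (184 and 238). All 5 had no promoter peak in either dexamethasone list. A GR promoter peak was listed for MICALL1 and for none of the other 4.

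**Figure D1:**
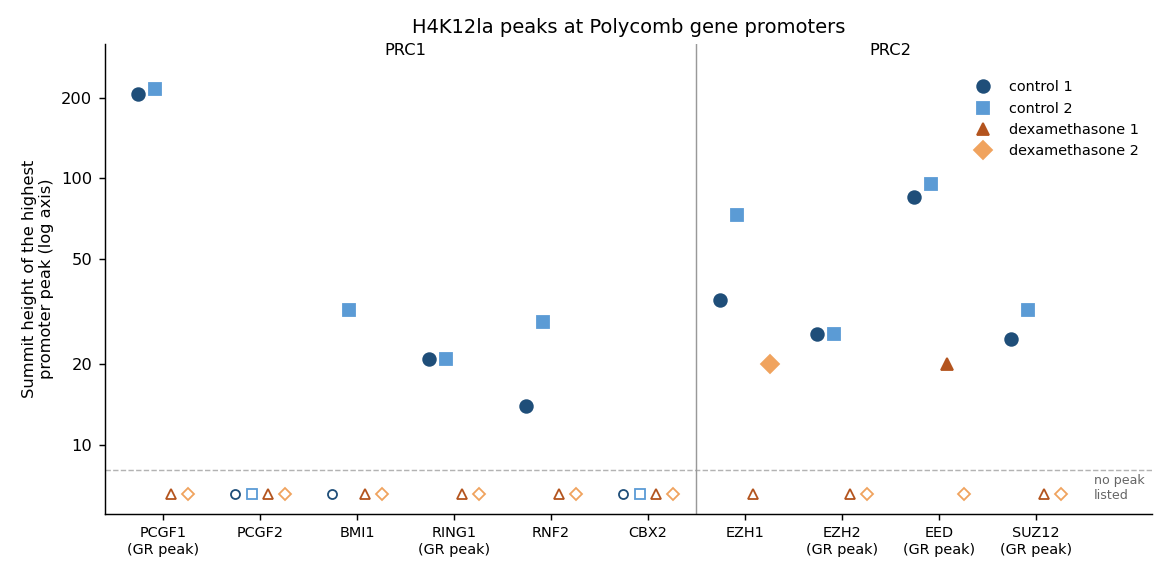
Summit height of the highest H4K12la promoter peak (log axis) for the 10 Polycomb genes, PRC1 on the left and PRC2 on the right; each symbol is 1 library and open symbols below the dashed line mark lists with no promoter peak. PCGF1 stands apart with control heights of 207 and 217, and the 2 dexamethasone peaks listed, at EZH1 and EED, both have a height of 20.

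BMI1 and PCGF2 had lower or no H4K12la peaks at their starts. BMI1 (chromosome 10, 22321099 to 22331706), the PCGF subunit of canonical PRC1 that restrains the INK4a locus, had a promoter peak of height 32 in control replicate 2 and none in control replicate 1 or in either dexamethasone list. A higher peak, 66 and 74 in control, lay at -4.56 kb from the first start, at the start shared by COMMD3 and the read-through gene COMMD3-BMI1. Neither dexamethasone list held it. In BMI1 itself a control-only region had heights of 13 and 22, and the only dexamethasone peak in the extended span, of height 14 in replicate 1, lay beyond the gene's end.

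PCGF2 (chromosome 17, 38733898 to 38749792, minus strand), the close relative of BMI1, had no promoter peak in any list at its 1 listed start. That start, at 38746628, lies inside the gene span. Its 3 control-only regions had heights of 30 and 23, 26 and 25, and 35 and 33, and all of them overlapped the neighbouring genes CISD3 or PSMB3. Peaks that lay in PCGF2 alone were found in 1 control list each, with heights of 20 and 24. No dexamethasone peak was listed in the whole extended span.

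RING1 (chromosome 6, 33208500 to 33212716), 1 of the 2 ubiquitin ligase subunits, had control promoter peaks of height 21 in both replicates and none with dexamethasone. These peaks ended upstream of the start, at -0.384 and -0.357 kb. In control replicate 1 the peak was 2484 bp long and ran back over the end of HSD17B8 and across MIR219A1, while control replicate 2 listed 3 separate peaks with heights of 24, 18 and 21 over the same stretch. No H4K12la peak was listed in the RING1 gene body in any of the 4 lists.

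RNF2 (chromosome 1, 185045558 to 185102603), the other ligase subunit, behaved differently along its length. Its promoter peaks were low, 14 and 29 in control, and were not listed with dexamethasone. Inside the gene, however, the 4 lists held about as many peaks as each other, 7 and 6 in control and 6 and 6 with dexamethasone over the extended span. At 14.9 kb into the gene a region stood at 21 and 21 in the controls and at 26 and 25 with dexamethasone, and another at 52.9 kb had 17 and 22 against 25 and 23. In both regions the dexamethasone heights were above the control heights. Another region, 20.3 kb in, was listed only with dexamethasone, at 23 and 20. The highest RNF2 peak in control, 33 and 44 at 28.6 kb, was 26 in dexamethasone replicate 2 and absent from replicate 1.

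CBX2 (chromosome 17, 79777311 to 79787983), a reader of the PRC2 methyl mark, had no peak at either end of its span in any list. A region inside the gene stood at 16 and 17 in the controls and at 23 in dexamethasone replicate 2, which alone held another peak in the gene, at 21. A region beyond the gene, near CBX8, stood at 13 and 16 in the controls and at 21 in dexamethasone replicate 1. Each of these regions was missing from 1 or more lists. The highest peaks in the extended span were 16 and 17 in the controls and 21 and 23 with dexamethasone, but they are not the same peaks. The 21 of dexamethasone replicate 1 is the peak beyond the gene, in the promoter window of CBX8. Inside CBX2 that list held no peak.

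**Figure D2:**
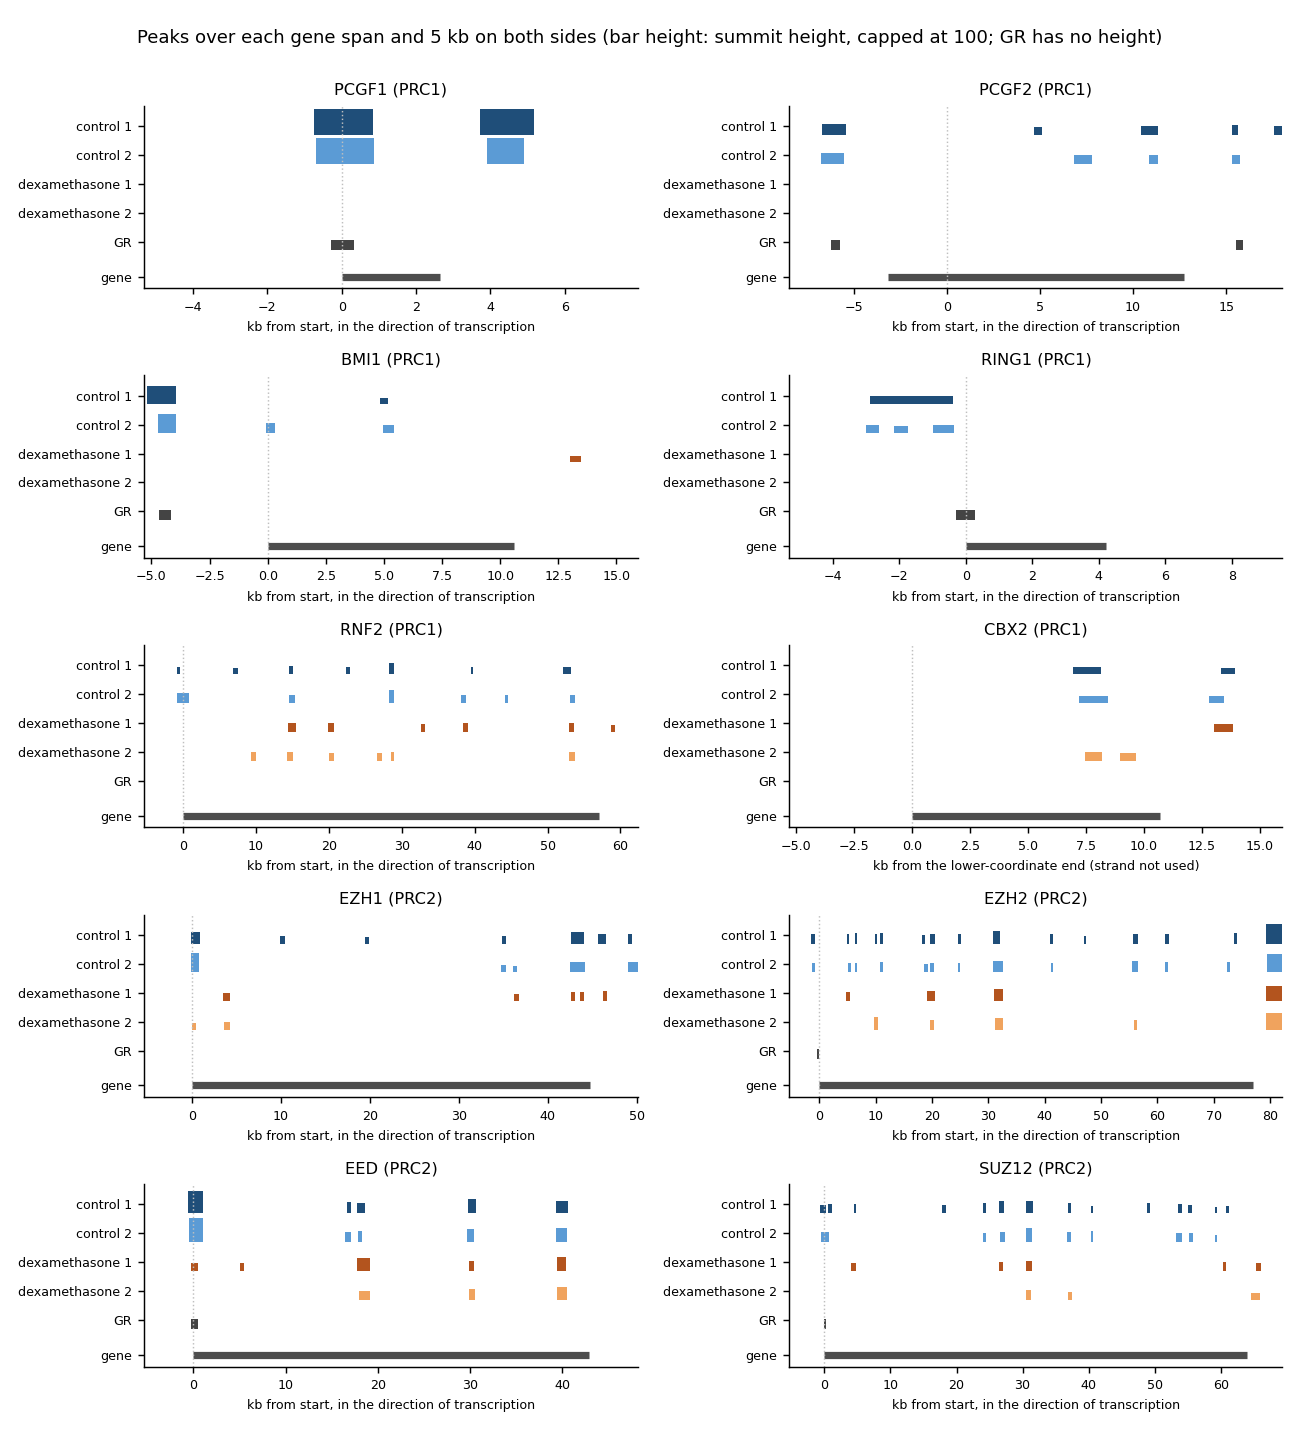
Peaks of the 5 lists over each gene and 5 kb on both sides, with distance from the first listed start in kb on the x axis and 1 row per library; bar height follows summit height up to 100, GR bars have no height, and the dark bar is the gene. Peaks at the starts of PCGF1, EED, EZH1 and SUZ12 are mostly missing from the dexamethasone rows, while some peaks inside RNF2, EZH2, EED and SUZ12 recur in all 4 H4K12la rows.

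All 4 PRC2 genes had a promoter peak in both control lists, as did 11315 of all 20037 protein-coding genes. EED (chromosome 11, 86244753 to 86287615) had the highest, 85 and 95, above 95.7% and 96.1% of peaks in those lists. With dexamethasone, replicate 1 listed it at 20 and replicate 2 did not list it. EZH1 (chromosome 17, 42700275 to 42745040), the methyltransferase that predominates in resting cells, had promoter peaks of 35 and 73 in the controls. Dexamethasone replicate 2 listed 1 of height 20 and replicate 1 listed none. The control heights of EZH1 differed by over a factor of 2 between replicates, and both were above the single dexamethasone value.

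SUZ12 (chromosome 17, 31937007 to 32001038) and EZH2 (chromosome 7, 148807383 to 148884291) were control-only at the promoter, at lower heights. SUZ12 had 25 and 32 as its highest promoter peaks. EZH2, the methyltransferase of dividing cells, had 26 and 26, and its peaks began at -0.819 and -0.759 kb from the first start, over the noncoding gene LOC124901767, so the start itself carried no H4K12la peak in any list.

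Away from the promoters, several PRC2 regions had much the same height with and without dexamethasone. In EED the region at 18.4 kb stood at 33 and 34 in the controls and at 43 and 25 with dexamethasone, and the region at 39.9 kb, which overlaps the pseudogene LOC100289518, had 41 and 51 against 48 and 42. The groups overlapped in both. Between them, the region at 30.2 kb had 51 and 45 in control and 29 and 33 with dexamethasone, which did not overlap.

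In EZH2 the region at 31.7 kb stood at 44 and 36 in the controls and at 42 and 43 with dexamethasone, and the region at 19.4 kb had 29 and 30 against 33 and 31. The highest EZH2 region lay just beyond the gene's end, at chr7:148801513-148805056, outside any other RefSeq gene. It stood at 75 and 71 in the controls and at 57 and 66 with dexamethasone, which do not overlap, yet in the dexamethasone lists it stood above 97.8% and 98.8% of peaks, against 94.2% and 92.3% in the control lists. These percentages rank the peak within lists of unequal length and show no change by themselves. Another 6 EZH2 regions, the upstream promoter region among them, were control-only, with heights between 26 and 34.

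SUZ12 kept 1 region in all 4 lists, 31.0 kb into the gene, at 42 and 49 in the controls and at 32 and 31 with dexamethasone. Its other regions were 6 control-only, the promoter region included, 1 dexamethasone-only beyond the gene's end (21 and 18, overlapping LOC124903972) and 7 with other combinations. EZH1 had no region in all 4 lists. It had 1 dexamethasone-only region, 3.94 kb downstream of its start, at 23 in both replicates, close to the promoter peak that was 35 and 73 in control.

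**Figure D3:**
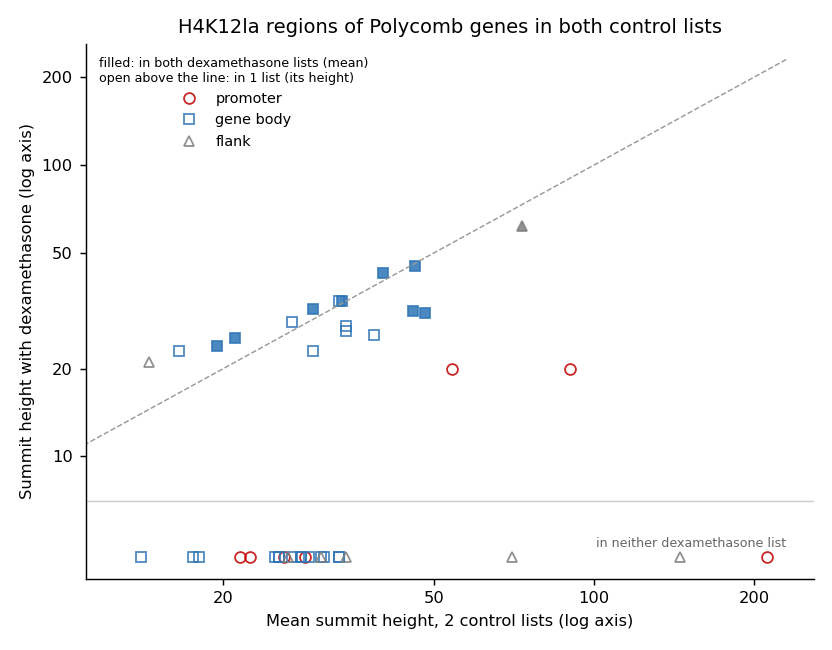
Summit heights of the merged regions held by both control lists, with the mean of the control lists on the x axis and dexamethasone on the y axis (both log axes); filled symbols are in both dexamethasone lists (mean height), open symbols above the grey line in 1 list, and symbols below it in neither. Regions held by all 4 lists lie between 0.646 and 1.23 times equal height (dashed line), whereas the 2 promoter regions listed with dexamethasone, at EZH1 and EED, lie below it at a height of 20.

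Over all 10 genes, merging the 4 lists gave 75 regions. Control-only regions numbered 24 (32%), against 18% of all 184761 merged regions, and 9 regions (12%) were in all 4 lists, against 15.9% of all regions. None of the 8 promoter regions was in all 4 lists, against 23.6% of all promoter regions, and 5 were control-only, that of PCGF1 included, against 32.7%. Of the 67 other regions, 19 (28.4%) were control-only, against 16.6% of all regions away from promoters, and 9 (13.4%) were in all 4 lists, against 15.2%. These sets are not alike. The 67 include regions in the promoter windows of the neighbouring genes LBX2, CISD3, PSMB3 and COMMD3, all control-only, and of CBX8. The share over all regions leaves out every promoter window. In the 9 regions held by all 4 lists the mean dexamethasone height was between 0.646 and 1.23 times the mean control height, with a median of 1.01. Dexamethasone heights were below both control heights in 3 of them, above in 3 and overlapping in 3, where 33.4% of all such regions away from promoters were below and 38.0% overlapping. Among all regions held by the 4 lists, the median ratio was 0.378 at promoters (3756 regions) and 1.00 elsewhere (25689 regions). Regions missing from any list have no ratio, here or among the 9 above. Over all regions in both control lists, the median control height was 49.5 at promoters and 27.5 elsewhere. Lower regions can drop out of a list more readily, so the ratios do not show a larger fall at promoters. For the 10 genes the contrast could not be measured, since no promoter region was in all 4 lists.

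Counted by gene, 5 of the 10 were control-only at the promoter, PCGF1, RING1, RNF2, EZH2 and SUZ12, against 22.1% of all protein-coding genes. Of the 7 genes with a promoter peak in both control lists these are 5, against 39.2% of 11315 such genes. PCGF1 is control-only by the choice of the group, and the other 4 had control promoter heights between 14 and 32. No gene of the 10 had a promoter peak in all 4 lists, against 19.4% of all genes, but EZH1 did when dexamethasone replicate 1 was left out and EED when replicate 2 was left out. None was dexamethasone-only, against 0.619% of all genes. When the same number of highest peaks, 67582, was taken from each list, the control-only genes were 3, PCGF1, EZH2 and SUZ12, against 18.9% of all genes, since the control peaks of RING1 and of RNF2 in replicate 1 lie under the resulting minimum height of 23.

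Peaks were next counted over the extended spans of each complex. The 6 PRC1 genes held 19 and 20 H4K12la peaks in control and 8 and 8 with dexamethasone, a ratio of 0.410. The 4 PRC2 genes held 41 and 32 in control and 19 and 13 with dexamethasone, a ratio of 0.438. Both are below the ratio over all protein-coding genes, 0.599, and that of the whole lists, 0.621. In PRC1 the remaining peaks were concentrated in RNF2, with 12 of the 16 dexamethasone peaks. Without RNF2 the other 5 PRC1 genes held 12 and 14 peaks in control and 2 and 2 with dexamethasone. PCGF1, PCGF2 and RING1 had no dexamethasone peak at all in their extended spans. These 3 were control-only over the whole extended span, against 5.69% of all genes, and PCGF1 was chosen for this contrast. With 20 kb on each side PCGF1 and PCGF2 had span peaks in all 4 lists. All 4 PRC2 genes, with RNF2 and CBX2, had span peaks in all 4 lists, against 63.3% of all genes. The PRC2 genes are longer, 42.9 to 76.9 kb, than the PRC1 genes other than RNF2, 2.65 to 15.9 kb, and a long gene has more room for peaks. Complex and gene length cannot be told apart here. Scaled to 10 kb of extended span, PRC1 genes had 1.18 and 1.24 control peaks and 0.497 and 0.497 dexamethasone peaks, and PRC2 genes 1.53 and 1.19 against 0.707 and 0.484. These ranges overlap between the complexes in control, and the lower of the 2 dexamethasone values of PRC2 is below those of PRC1. The difference between the complexes was not tested. The order of the ratios depended on the setting. PRC1 had the higher one with equal peak numbers (0.778 against 0.552 for PRC2), on unextended spans (0.565 against 0.409) and for heights of 20 or more (0.519 against 0.460), and with 20 kb on each side they were 0.452 and 0.451.

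**Figure D4:**
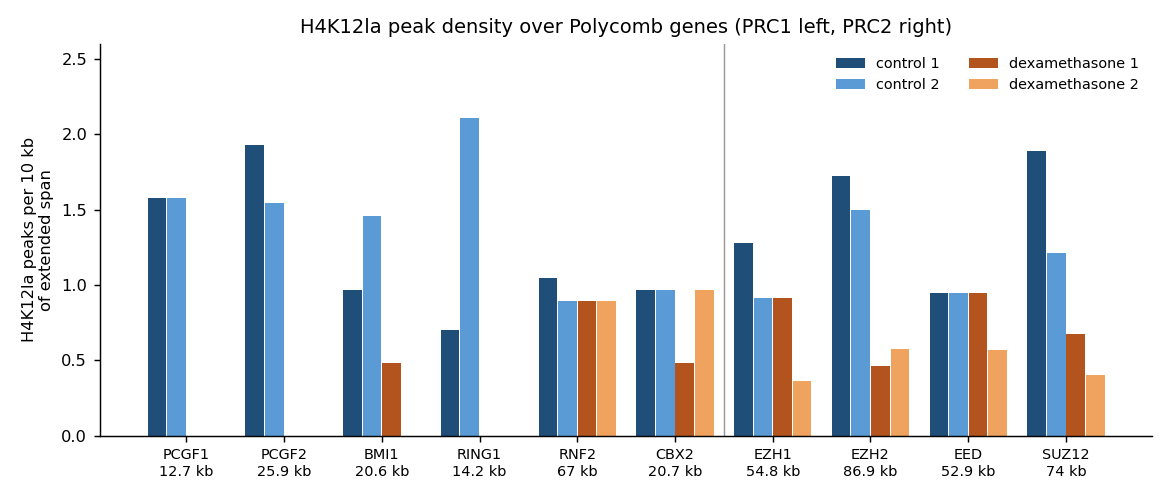
H4K12la peaks per 10 kb of extended span for each gene (bars, 1 per library, with the extended span length under each name). PCGF1, PCGF2 and RING1 have no dexamethasone bar, whereas RNF2 holds 1.04 and 0.895 peaks per 10 kb in control and 0.895 in both dexamethasone lists.

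The highest span peak was compared for the 6 genes with peaks in all 4 lists. For 5 of them, RNF2, EZH1, EZH2, EED and SUZ12, each dexamethasone list had a lower value than each control list, against 78% of the 12692 such genes, and for CBX2 each had a higher one. In RNF2 the highest control peaks were 33 and 44 and the highest dexamethasone peaks 26 and 26, and in EZH1 35 and 73 against 34 and 23. The highest peaks of different lists need not be the same region. In dexamethasone replicate 1 the RNF2 value of 26 lay at 14.9 kb, where the controls had 21 and 21. The EZH1 value of 34 lay beyond the gene's end in CNTNAP1, where control replicate 1 had 30 and replicate 2 no peak. The CBX2 value of that list lay near CBX8, outside the gene. The count was 3, RNF2, EED and SUZ12, when heights were divided by the median height of their list.

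A wider list of 39 Polycomb genes, made up of further PRC1 and PRC2 subunits, the deubiquitinase complex of BAP1 and the demethylases that remove the PRC2 mark, was described in the same way. At the promoter 9 of the 39 (23.1%) were control-only and 8 (20.5%) were in all 4 lists, both close to the shares over all genes. Without dexamethasone replicate 1 the control-only count was 14, and with equal peak numbers it was 5. Among the control-only genes, E2F6, a repressor in a variant PRC1, had promoter heights of 32 and 92, the PRC2 cofactor genes AEBP2 and JARID2 had 44 and 64 and 29 and 60, the polyhomeotic genes PHC2 and PHC1 had 44 and 51 and 33 and 30, and CBX6 had 22 and 21. RBBP4, a histone-binding subunit of PRC2, was the highest of those in all 4 lists, with 174 and 238 in control and 41 and 34 with dexamethasone. ASXL1, the partner of BAP1, had 146 and 142 against 21 and 20. BAP1, the H2A deubiquitinase gene often mutated in renal carcinoma, had 59 and 130 against 49 and 50, and PCGF3 had 164 and 134 against 41 and 74. BAP1 had no listed start, so its values are the highest within 1 kb of either end of its span. In each of these 4 genes the dexamethasone and control values do not overlap. Of the 33 genes with span peaks in all 4 lists, the highest span peak was lower in both dexamethasone lists for 25 and higher for 3. Over all 12692 such protein-coding genes it was lower for 78%, so the count of 25 is near the general share. The share with higher values was not computed.

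**Figure D5:**
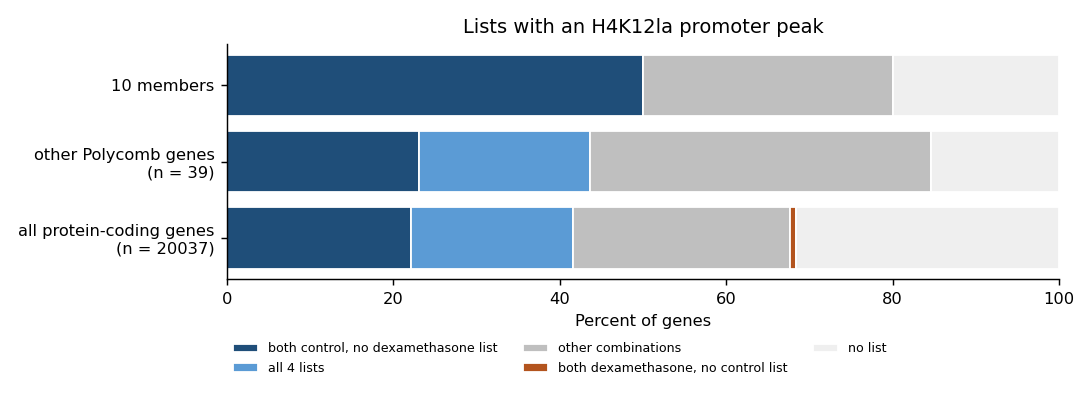
Percent of genes by the H4K12la lists that hold a promoter peak, for the 10 core genes, the 39 other Polycomb genes and all 20037 protein-coding genes. The control-only part is 50%, 23.1% and 22.1%, and the part held by all 4 lists is 0%, 20.5% and 19.4%.

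GR peaks come from a separate library, the only 1 for GR, and have no height. They are not independent of the choice of PCGF1 as a control-only gene. A GR promoter peak was listed for 48.3% of the 4437 control-only genes, against 33% of all genes. Promoter GR peaks were listed for 5 of the 10 genes, PCGF1, RING1, EZH2, EED and SUZ12, against 33% of all genes, and for 18 of the 39 other Polycomb genes. By complex these were 2 of 6 PRC1 and 3 of 4 PRC2 genes. Over the extended spans 7 genes had a GR peak, against 42.8% of all genes, but 4 when the span was not extended. The added genes were PCGF2 and BMI1, whose GR peaks lay at the starts of CISD3, PSMB3 and COMMD3, and EZH2. RNF2, CBX2 and EZH1 had none.

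At PCGF1 the GR peak spanned chr2:74507355-74507968, 614 bp, from -0.273 to 0.34 kb around the start, inside the H4K12la peak of both control lists. At EED it spanned chr11:86244495-86245217, 723 bp, and met H4K12la in both control lists and in dexamethasone replicate 1. At SUZ12 it spanned chr17:31936903-31937301, 399 bp, and met H4K12la in both control lists. At RING1 and EZH2 the GR peak met no H4K12la peak in any list. The RING1 peak, chr6:33208214-33208775, lay across the start while the control H4K12la peaks ended upstream of it, and the EZH2 peak, chr7:148884327-148884620, lay between the start and the upstream H4K12la region. No peak in the GR list is shorter than the 294 bp of the EZH2 peak. Of the 5 genes that were control-only at the promoter, 4 had a GR promoter peak, RNF2 being the exception, against 48.3% of the 4437 control-only genes. Only at PCGF1 and SUZ12, of these 4, did the GR peak and the H4K12la peak overlap. The GR rows used here, 8065, are 53.1% of the highest row number in that list, so RNF2, CBX2 and EZH1 are genes with no listed peak rather than genes shown to be free of GR.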

How the data were processed

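The labels put the CUT&Tag libraries into H4K12la control (2), H4K12la with dexamethasone (2) and GR with dexamethasone (1). Whether replicates are separate cultures is not stated, so their spread may be technical. The submitters' processing notes name fastp 0.19.6, Bowtie2, deepTools and the build GRCh38. Which peak caller was used is not given in the sources. For each library the authors deposited a separate peak list, holding a summit signal (height) for H4K12la and positions and lengths for GR. Read totals are not given, so no counting interval was computed.

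Peaks outside the 22 autosomes, X and Y were dropped. Gene spans came from RefSeq (GRCh38.p14) and starts and strands from its promoter table, for 15842 of 20037 protein-coding genes; the other 4195 used both span ends. H4K12la peaks of any list that overlapped by 1 bp formed 1 region. The 10 genes, the 39 further genes and the markers were chosen with earlier results of these data known. Of the 39, up to 6 control-only genes and up to 4 in all 4 lists were named, by control height, as were the 5 genes nearest to PCGF1. The 8 motifs were chosen after the peak values were seen. No test was run. Alternatives were other windows, extensions, thresholds and height scales, equal peak numbers, summit overlap and leaving out each replicate. Simulated lists with planted peaks were used to test the code. Python 3.11.15, numpy 2.4.6, pandas 2.3.3 and matplotlib 3.10.9 were used.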

Additional observations from a re-analysis of the deposited data

How the results depend on the processing

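For the 10 results on the Polycomb genes, 82 values were recomputed under 14 settings. Of these, 69 stayed within 1.5 times the reported count, or within 1 SD for a ratio, and 13 moved. The SD was taken over the ratios of each dexamethasone list to each control list, which are not independent. It was 0.012 for PRC1 and 0.116 for PRC2, so a PRC1 ratio was labelled as moved after a smaller shift. A crossing to the opposite direction was defined only for the ratios, as passing 1, and 0 did so. For counts no crossing could be recorded. The order of the PRC1 and PRC2 ratios was not labelled in this way, and it depended on the setting. With equal peak numbers the core genes that were control-only at the promoter numbered 3 in place of 5, the other Polycomb genes 5 in place of 9, and the dexamethasone to control ratio of span peaks was 0.605 for the 10 genes (0.429 as reported) and 0.778 for PRC1; fewer control peaks enter by construction. The PRC1 ratio was 0.565 on unextended spans, 0.452 with 20 kb on each side and 0.519 for heights of 20 or more. Dividing heights by the list median left 3 genes with lower dexamethasone heights, and unextended spans left 4 genes with a GR peak. With both span ends as promoters, 1 gene, EZH1, had a promoter peak in all 4 lists.

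Leaving out each library in turn gave 0 to 1 genes with a promoter peak in all lists, 5 to 6 control-only core genes and 10 to 14 control-only other Polycomb genes (14 without dexamethasone replicate 1). With a list left out each rule asks for less, so these counts could stay or rise but not fall. No test was run, with or without pairing by replicate number. Unknown depth limits every comparison of heights and of missing peaks between lists.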
